A study of Rattus norvegicus with 170 samples.

Results

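Non-cycling β-cells from rat islets treated with the small molecule GNF4877 were compared, gene by gene, with non-cycling β-cells from islets that received the vehicle DMSO. Cells were chosen on measured values. A cell was taken as a β-cell when *Ins1* (insulin 1) reached 1000 RPM (reads of a gene scaled to mapped reads per cell) and *Gcg*, *Sst* and *Ppy* were each below 1000 RPM, and as non-cycling when *Ccnb1* was 0 and *Mki67* was below 10 RPM. These limits left 78 of the 170 cells of the series, 34 of 84 from GNF4877 and 44 of 86 from DMSO. Another 20 GNF4877 cells and 6 DMSO cells passed as β-cells but not as non-cycling. The limits on the other hormones fell unequally on the groups. The *Ins1* limit was reached by 58 GNF4877 and 75 DMSO cells, of which 54 and 50 also passed on *Gcg*, *Sst* and *Ppy*. Of those cells 1 from GNF4877 and 22 from DMSO were over the limit on *Gcg*.

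Whole islets came from wild type Sprague Dawley rats, described as 8 week males, and were cultured for 48 h in medium with 5.5 mM glucose. The GNF4877 group received 3 μM GNF4877, an aminopyrazine inhibitor of the kinases DYRK1A and GSK3β, and the vehicle group received 0.1% DMSO. The islets were then dispersed, and single cells were captured on Fluidigm C1 chips for sequencing of polyadenylated RNA. The sources used here do not tie cells to animals, cultures or further chips. Each treatment therefore counts as 1 sample without replicates, no test was run, and treatment cannot be told apart from chip or lane. Shares of cells carry exact Clopper-Pearson 95% intervals, which reflect counting error alone.

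Adult β-cells divide rarely. DYRK1A phosphorylates NFAT transcription factors and so opposes calcineurin, which allows their entry into the nucleus, and GSK3β marks β-catenin and other proteins for degradation. A cell that has left quiescence passes through G1 and S phase before cyclin B1, the product of *Ccnb1*, accumulates.

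The limits on *Mki67* and *Ccnb1* fell close to some cells. The highest *Mki67* value kept was 9.67 RPM in DMSO and 4.81 RPM in GNF4877, and the lowest left out among cells without *Ccnb1* was 11.5 RPM in DMSO and 27.1 RPM in GNF4877. *Ccnb1* left out 16 GNF4877 cells, of which the lowest held 0.477 RPM, and 1 DMSO cell with 49.4 RPM. The *Ins1* limit fell in a gap, since the lowest cells kept held 3891 RPM in DMSO and 2435 RPM in GNF4877, and the nearest single-hormone cells below it held 171 and 33.6 RPM. The highest *Gcg* value kept was 865 RPM in DMSO and 245 RPM in GNF4877, and the lowest left out was 5982 and 37011 RPM. For *Sst* the highest values kept were 27.4 and 72.9 RPM and the lowest left out 5747 and 15778 RPM. For *Ppy* these were 29.7 and 16.6 RPM, and 1244 and 2293 RPM.

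Fewer genes were read in the GNF4877 cells. Mapped reads per cell ranged from 298651 to 2497250 in DMSO with a median of 1208300, and from 583474 to 1875160 in GNF4877 with a median of 1411050. Genes with a read numbered 4677 to 10415 per DMSO cell (median 8809) and 5065 to 8126 per GNF4877 cell (median 6820.5). After every cell was thinned to 100000 reads the ranges were 3441 to 8098 (median 6417.5) and 3517 to 5925 (median 4777.5). The gap was thus present at equal depth, and 30 DMSO cells lay outside the range covered by both groups. Its part in the results below was not tested, and it cannot be told apart from the treatment.

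**Figure D1:**
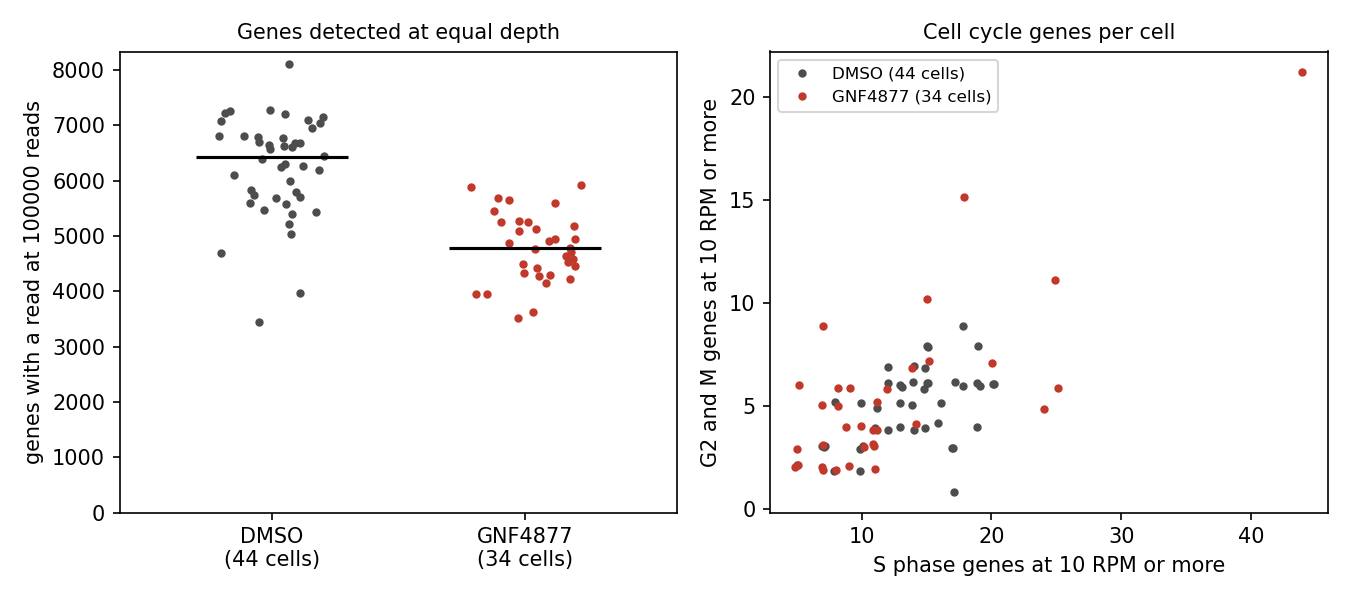
Left, genes with a read per cell after thinning to 100000 reads, with medians as bars (6417.5 in DMSO, 4777.5 in GNF4877). Right, number of S phase genes against number of G2 and M genes at 10 RPM or more in each cell, with small random shifts so that points do not hide each other; 1 GNF4877 cell lies far from the rest at 44 and 21 genes.

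Of 24113 genes, 10132 had a mean of the group means of 5 RPM or more and were kept. For each, the log2 ratio of mean RPM in GNF4877 over DMSO was taken with 1 RPM added to both means. The ratio was 2-fold or more higher in 1001 genes (9.88%) and 2-fold or more lower in 1710 (16.9%), with a median of -0.08. On a second scale, the difference of mean log2(RPM + 1) over cells, which weighs detection in each cell more heavily, 187 genes were higher (1.85%) and 3451 lower (34.1%), and the median over the genes kept was -0.64. Lists that were lower are therefore given with this second scale as well. Some ratios hung on single cells, and where leaving out 1 cell moved the log2 ratio given for a gene below by 1.5 times or more, its lowest and highest values without 1 cell are given. In a choice made after the data were seen, the 34 GNF4877 and 14 DMSO cells in the range of gene numbers that both groups covered were compared alone. There 9830 genes were kept, of which 1846 were higher (18.8%) and 1726 lower (17.6%), with a median of 0.03. Gene numbers after thinning still differed between these cells, with medians of 4777.5 in GNF4877 and 5522 in DMSO.

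Genes of cholesterol synthesis and uptake were higher together in GNF4877. The table lists 32 genes of that list, of which 30 were kept, and 21 of these were 2-fold or more higher and 0 were lower, against 9.88% and 16.9% of all genes kept. The list median was 1.55. On the second scale it was 0.84, against -0.64 for all genes, with 13 genes higher and 1 lower (all genes, 1.85% and 34.1%). The summed RPM of the list ran from 180 to 3727 in DMSO cells (median 1314) and from 441 to 23676 in GNF4877 cells (median 3364). The groups overlapped, but 29 of 34 GNF4877 cells lay above the DMSO median and 15 lay above the highest DMSO cell. *Fdps*, which makes farnesyl diphosphate, was the most abundant gene of the list in GNF4877, at 0 to 542 RPM in the DMSO cells (median 149) and 0.94 to 5896 RPM in the GNF4877 cells (median 576). Its mean was 1071 against 169 RPM, a log2 ratio of 2.66, and 19 GNF4877 cells exceeded every DMSO cell. *Msmo1*, a sterol C4 methyl oxidase, had 0 to 430.4 RPM in the DMSO cells (median 53.5) and 0.712 to 3094 RPM in the GNF4877 cells (median 398), a log2 ratio of 2.70. *Idi1*, the isomerase upstream of *Fdps*, reached 10 RPM in 21 of 44 DMSO cells (47.7%, 32.5% to 63.3%) and 29 of 34 GNF4877 cells (85.3%, 68.9% to 95%), with a log2 ratio of 2.85. Both genes were high in most GNF4877 cells and low or not read in others. *Scd1*, a fatty acid desaturase, had a log2 ratio of 3.84 with means of 63.9 against 3.54 RPM, but shares sequence with *Scd*, so reads of the pair can be misplaced. *Srebf2*, which encodes the factor that switches on these genes when sterols are low, averaged 90.4 against 88.4 RPM (log2 ratio 0.03, and -0.38 on the second scale).

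**Figure D2:**
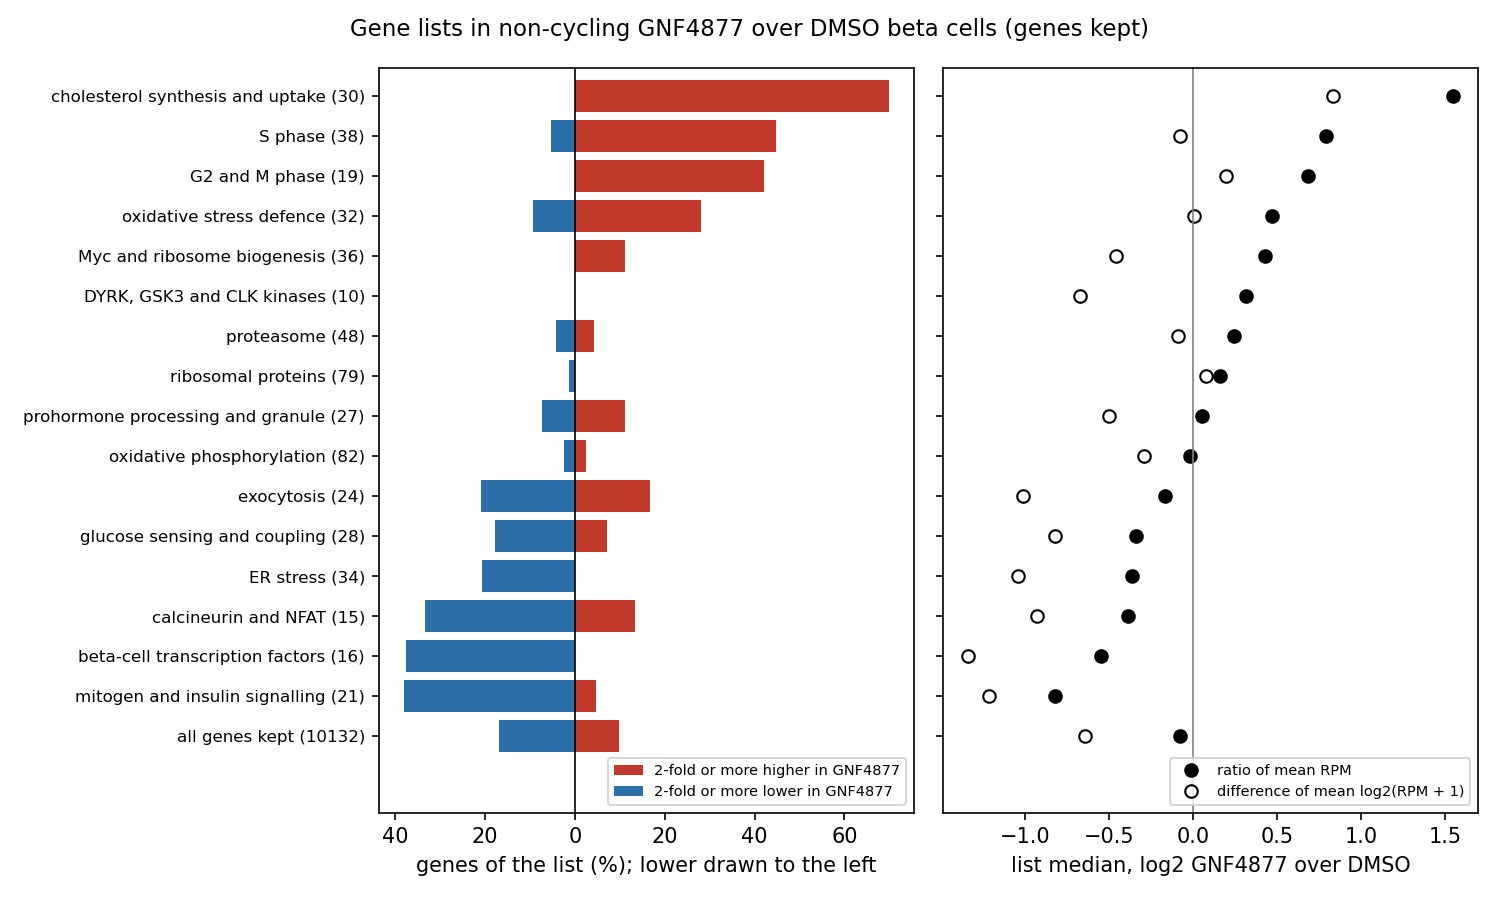
Left, percent of the kept genes of each list that were 2-fold or more higher (right of 0) or lower (left of 0) in GNF4877, with the number of genes in brackets. Right, the list medians as log2 ratio of mean RPM (filled) and as difference of mean log2(RPM + 1) (open). Of the lists drawn, cholesterol lies highest on both scales, at 1.55 and 0.84, while all genes lie at -0.08 and -0.64.

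The promoters of the 4 cholesterol genes with the highest ratios among those with a promoter entry are shown because these genes were higher together. RefSeq promoters of assembly GRCr8 were matched by symbol for 20 of the 32 genes, and the 250 bases before the start of transcription were searched on both strands. The 9 motifs were chosen after the ratios were seen. CCAAT was found in 15 of the 20 genes, against 34.02% of all 33469 promoters. CACNCCAC, the core of a sterol regulatory element, was found in 3 genes (all promoters, 4.89%), and TCACNCCAC, which contains it, in 0 (0.974%). TGACNNNGC, the antioxidant element, was found in 5 (10.1%), TGANTCA, bound by AP-1 and overlapping that element in letters, in 2 (6.34%), and CACGTG in 3 (5.59%). GGAAA, the core bound by NFAT, was found in 9 (56.9%). CTTTGAA, bound by TCF, was found in 0 (4.68%), as was the E2F motif TTTCGCGC or TTTGGCGC (0.636%). A match is a description of the letters and not a measured site. In the sequences below capitals mark CCAAT or CACNCCAC on either strand. They lie at chr17:66547525-66547774, minus strand, for *Idi1*, chr16:29746863-29747112, plus strand, for *Msmo1*, chr2:176804817-176805066, minus strand, for *Fdps* and chr1:50100590-50100839, plus strand, for *Acat2* (log2 ratio 2.34), which falls outside the naming rule and was taken after its value was seen. *Scd1* had no entry.
Idi1: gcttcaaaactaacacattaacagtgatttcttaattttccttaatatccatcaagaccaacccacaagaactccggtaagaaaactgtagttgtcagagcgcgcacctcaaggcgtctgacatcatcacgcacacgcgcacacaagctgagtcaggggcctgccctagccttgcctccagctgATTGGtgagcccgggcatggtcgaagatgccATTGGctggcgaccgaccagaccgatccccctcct
Msmo1: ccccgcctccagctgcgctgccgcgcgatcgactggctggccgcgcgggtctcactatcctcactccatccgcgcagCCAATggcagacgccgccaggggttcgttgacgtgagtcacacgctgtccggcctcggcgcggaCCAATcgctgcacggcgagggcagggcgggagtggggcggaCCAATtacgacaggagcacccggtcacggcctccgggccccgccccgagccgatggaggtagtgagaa
Fdps: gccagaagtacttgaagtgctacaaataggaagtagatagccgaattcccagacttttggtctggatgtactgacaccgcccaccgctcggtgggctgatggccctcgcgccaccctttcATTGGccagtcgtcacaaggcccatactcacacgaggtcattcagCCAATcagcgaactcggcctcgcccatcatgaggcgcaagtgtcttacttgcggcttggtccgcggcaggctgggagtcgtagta
Acat2: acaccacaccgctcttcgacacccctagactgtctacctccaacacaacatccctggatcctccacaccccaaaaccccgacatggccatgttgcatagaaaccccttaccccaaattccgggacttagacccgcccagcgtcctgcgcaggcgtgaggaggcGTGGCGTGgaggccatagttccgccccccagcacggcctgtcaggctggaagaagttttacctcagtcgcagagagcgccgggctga
The first 3 hold CCAAT 2, 3 and 2 times, and *Acat2* holds CACNCCAC and no CCAAT.

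Genes of defence against oxidative stress were higher more often than all genes. Of 32 kept genes 9 were 2-fold or more higher (28.1%, against 9.88% of all genes) and 3 lower (9.38%, against 16.9%), with a median of 0.47. On the second scale it was 0.01, against -0.64, with 7 genes higher and 4 lower (all genes, 1.85% and 34.1%). In the range of gene numbers that both groups covered 10 of 33 were higher (30.3%) and 3 lower (9.09%). Of all genes there 18.8% were higher and 17.6% lower. The median of the summed RPM was 10939 for DMSO cells and 27243 for GNF4877 cells, and 33 of 34 GNF4877 cells lay above the DMSO median, although the highest cell of all was a DMSO cell at 53391 RPM. *Fth1*, the ferritin heavy chain, was the most abundant gene of the list in both groups, with means of 12003 against 4435 RPM (log2 ratio 1.44). *Gstp1*, a glutathione transferase, had 0 to 553 RPM in the DMSO cells (median 1.24) and 0 to 1217 RPM in the GNF4877 cells (median 53.8), a log2 ratio of 1.96. *Sod2*, the mitochondrial superoxide dismutase, averaged 1032 against 290.3 RPM (1.83), with similar medians of 195 and 177 RPM, so its difference lay in the highest cells. *Gclc*, a subunit of the enzyme that starts glutathione synthesis, was lower at 10.4 against 38.6 RPM (-1.80, without 1 cell -2.89 to -1.36).

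The highest ratio by the naming rule belonged to *Akr1b8*, an aldo-keto reductase, with 0 to 338 RPM in the DMSO cells (median 0) and 0 to 15479 RPM in the GNF4877 cells (median 0.69). The mean was 627 against 17.3 RPM, a log2 ratio of 5.10 (3.28 to 5.85 without 1 cell), and reads shared with *Akr1b10* can be misplaced. Most GNF4877 cells were thus at or near 0 and 11 of 34 reached 10 RPM. *Mmp13*, a collagenase, had the same form, with 0 to 421 RPM in the DMSO cells (median 0) and 0 to 12579.7 RPM in the GNF4877 cells (median 1.06), 8 GNF4877 and 7 DMSO cells at 10 RPM, and a log2 ratio of 3.92 (2.53 to 4.30). *Cxcl11*, a chemokine, differed in more cells, at 0 to 104 RPM in the DMSO cells (median 0) and 0 to 4252 RPM in the GNF4877 cells (median 102), and 17 GNF4877 cells exceeded every DMSO cell. Its log2 ratio was 4.37 (3.59 to 4.61). *Fabp5*, a fatty acid binding protein, had 0 to 1022 RPM in the DMSO cells (median 15.7) and 0 to 5738 RPM in the GNF4877 cells (median 211), with a log2 ratio of 3.18. *Gpx2*, a glutathione peroxidase, reached 10 RPM in 1 of 44 DMSO cells (2.27%, 0.0575% to 12%) and 16 of 34 GNF4877 cells (47.1%, 29.8% to 64.9%), with a log2 ratio of 5.02 (4.48 to 6.64). *Fgb*, a fibrinogen chain, and *Lcn2*, a lipocalin, both encode secreted proteins and had log2 ratios of 3.91 (3.30 to 4.84) and 2.81 (2.20 to 3.94), with highest values of 63689.9 and 15012 RPM in GNF4877. The other genes among the 15 highest were *Wdhd1*, *LOC100360908*, *Slfn13*, *LOC100912308*, *Exd2* and *Zfp105*, with ratios from 2.72 to 3.56. Without 1 cell *Slfn13*, at 3.03, ran from 1.76 to 4.87, *Wdhd1* from 3.09 to 4.40 and *LOC100912308*, at 2.98, from 2.36 to 3.31.

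Among the lowest ratios *Trh*, which encodes thyrotropin-releasing hormone, was by far the most abundant gene. It had 0.868 to 73665 RPM in the DMSO cells (median 1377) and 0 to 4174 RPM in the GNF4877 cells (median 0.733), and reached 10 RPM in 41 of 44 DMSO cells (93.2%, 81.3% to 98.6%) and 13 of 34 GNF4877 cells (38.2%, 22.2% to 56.4%). Means were 288 against 5061 RPM, a log2 ratio of -4.13 (-4.88 to -3.58 without 1 cell). *Trh* was read in every DMSO cell and stayed under 10 RPM in most GNF4877 cells, although the ranges overlapped. *Kit*, a receptor tyrosine kinase, had 0 to 205 RPM in the DMSO cells (median 18.1) and 0 to 0.809 RPM in the GNF4877 cells (median 0). Only 2 *Kit* reads were found over all GNF4877 cells, and with 1 RPM added to both means the log2 ratio was -5.24. *Med13l*, a subunit of the Mediator kinase module, held 1 read in GNF4877 and had a log2 ratio of -4.23. With so few reads no fold without the added RPM is given for either. *Prkcd*, a protein kinase C, averaged 0.685 against 31.8 RPM (-4.28) and *Ncald*, a neuronal calcium sensor, 2.77 against 62.2 RPM (-4.07, without 1 cell -4.68 to -3.90). The other 10 of the 15 lowest, *Rasa4*, *Zmym3*, *Cables2*, *Parm1*, *LOC100912409*, *Rsph9*, *Fam117b*, *Unc45a*, *Tubgcp3* and *Gtf3c2*, had ratios from -4.60 to -3.99. Without 1 cell *Cables2* ran from -5.13 to -4.18, *LOC100912409* from -5.10 to -4.03 and *Unc45a* from -4.97 to -3.83. All 10 averaged under 3 RPM in GNF4877.

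**Figure D3:**
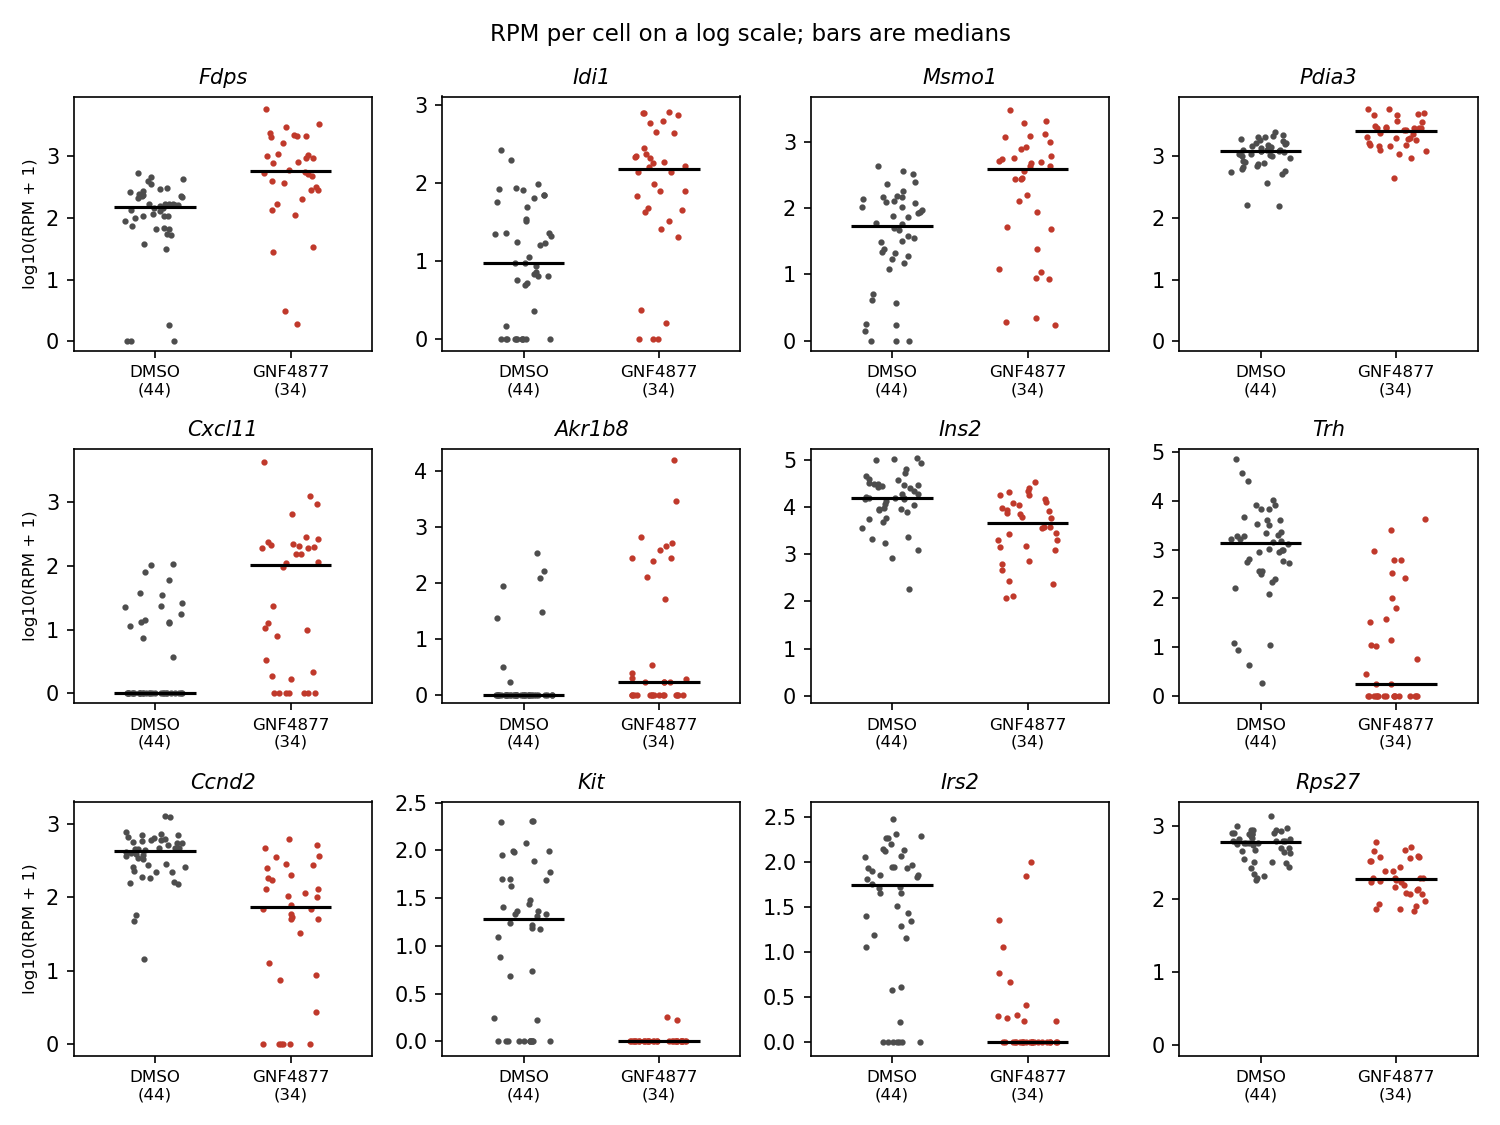
RPM per cell of 12 genes on a log10(RPM + 1) scale, 44 DMSO and 34 GNF4877 cells, with medians as bars and small random sideways shifts. The groups overlap for each gene drawn; *Trh* and *Irs2* lie near 0 in most GNF4877 cells, and *Fdps* has medians of 149 and 576 RPM.

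All cells held *Ins2* beside *Ins1*, with *Ins2* lower in GNF4877, but not every cell held the other β-cell markers. *Pdx1* had no read in 14 of 34 GNF4877 and 3 of 44 DMSO cells, and *Nkx6-1* none in 16 and 9. In the list of markers, which holds *Ins1*, 9 were kept. Of these 1 was 2-fold or more higher (11.1%, against 9.88% of all genes) and 3 lower (33.3%, against 16.9%). The median was -0.47, and -1.13 on the second scale, against -0.64 for all genes. In the range of gene numbers that both groups covered 2 of 9 were higher and 2 lower (22.2% each). Of all genes there 18.8% were higher and 17.6% lower. *Ins1*, on which cells were selected, ranged from 3891 to 147087 RPM in DMSO (median 45282) and from 2435 to 63576 RPM in GNF4877 (median 19768). *Ins2*, which the selection did not use, had 183 to 106034 RPM in the DMSO cells (median 15499) and 115 to 33272 RPM in the GNF4877 cells (median 4738). The GNF4877 values lay mostly in the lower part of the DMSO range, and the log2 ratio was -1.70. Both insulin genes together took a median of 6.34% of listed RPM in DMSO and 3.08% in GNF4877. That share includes *Ins1* and so is not independent of the selection. *Iapp*, the amylin gene, was higher instead, at 2.04 to 12254 RPM in the DMSO cells (median 830.3) and 7.12 to 19202 RPM in the GNF4877 cells (median 1893), with a log2 ratio of 1.10 (0.93 to 1.29 without 1 cell, and 0.47 on the second scale). *Ucn3*, a marker of mature β-cells, averaged 64.5 against 198 RPM (-1.60). *Slc2a2*, the glucose transporter, averaged 2877 against 1910.2 RPM (0.59, but -0.24 on the second scale). *Mafa*, a mature β-cell factor, was at or near 0 in both groups, with no read in GNF4877 and no value above 3.67 RPM in DMSO.

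Of 16 kept β-cell transcription factors 0 were 2-fold or more higher and 6 were lower (37.5%, against 16.9% of all genes, of which 9.88% were higher), with a median of -0.55 (-1.34 on the second scale, against -0.64 for all genes). *Nkx6-1* had 0 to 48.3 RPM in the DMSO cells (median 7.45) and 0 to 35.1 RPM in the GNF4877 cells (median 0.594), a log2 ratio of -1.34. *Myt1*, an islet zinc finger factor, averaged 9.47 against 50.3 RPM (-2.29, without 1 cell -2.99 to -2.05) and *Tshz1*, another, 53.5 against 132 RPM (-1.29). *Rfx3* averaged 5.43 against 25 RPM (-2.02, without 1 cell -2.77 to -1.67), and among cells in the range of gene numbers that both groups covered it reversed to 1.69. In those 34 GNF4877 and 14 DMSO cells the list had 2 genes higher and 2 lower of 15 kept (13.3% each, against 18.8% and 17.6% of all genes there), and a median of -0.15. *Pdx1* averaged 31.5 against 44.1 RPM (-0.47, and -1.56 on the second scale), and *Neurod1*, the most abundant factor in both groups, 689.8 against 419.9 RPM (0.71, but -0.38 on the second scale).

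Lists of secretory genes are set beside all genes, of which 9.88% were higher and 16.9% lower. In glucose sensing and stimulus coupling 2 of 28 kept genes were 2-fold or more higher (7.14%) and 5 lower (17.9%), with a median of -0.34 (-0.82 on the second scale). In prohormone processing and the granule it was 3 (11.1%) and 2 (7.41%) of 27, with medians of 0.05 and -0.50, and in exocytosis 4 (16.7%) and 5 (20.8%) of 24, with medians of -0.16 and -1.01. On the second scale 12 of the 28, 9 of the 27 and 12 of the 24 were lower, against 34.1% of all genes, which had a median of -0.64. In the range of gene numbers that both groups covered 5 of 25 glucose sensing genes were higher and 5 lower (median -0.02). There it was 4 and 2 of 27 for prohormone processing (0.30) and 5 and 3 of 24 for exocytosis (0.08). Of all genes there 18.8% were higher and 17.6% lower. *Pdia3*, a disulphide isomerase, was high in both groups, at 156 to 2443 RPM in the DMSO cells (median 1203) and 448 to 5875 RPM in the GNF4877 cells (median 2524), and 17 GNF4877 cells exceeded every DMSO cell (log2 ratio 1.15). *Cacna1c*, a calcium channel subunit, averaged 1.65 against 18.5 RPM (-2.88), and *Pc*, pyruvate carboxylase, 25.1 against 109 RPM (-2.07, without 1 cell -4.38 to -1.95). *Rab3a*, a GTPase of secretory vesicles, averaged 30.5 against 100.3 RPM (-1.69), *Vamp2*, the vesicle SNARE, 25.6 against 68.9 RPM (-1.39), and *Syt5*, a synaptotagmin, was higher at 90.3 against 33 RPM (1.43), while its median was lower in GNF4877, at 5.2 against 7.77 RPM. Of 13 kept islet receptors 1 was higher and 4 were lower, with medians of -0.04 and -0.82. Among the cells in the range of gene numbers that both groups covered this turned to 5 higher and 2 lower of 12 (all genes there, 18.8% and 17.6%), with a median of 0.60, so no direction is read from this list. *Ffar1*, a fatty acid receptor, averaged 2.45 against 19.9 RPM (-2.60) and *Glp1r*, the receptor of the incretin GLP-1, 46.7 against 129 RPM (-1.45).

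Mitogen and insulin signalling genes were lower more often than all genes, with 1 of 21 kept genes 2-fold or more higher (4.76%, against 9.88%) and 8 lower (38.1%, against 16.9%). The median was -0.82, and -1.21 on the second scale, against -0.64 for all genes. In the cells of the shared range of gene numbers 3 of 21 were higher and 7 lower (median -0.42), against 18.8% and 17.6% of all genes there. *Irs2*, an adaptor of the insulin and IGF receptors, had 0 to 298 RPM in the DMSO cells (median 54.5) and 0 to 101 RPM in the GNF4877 cells (median 0). It reached 10 RPM in 34 of 44 DMSO cells (77.3%, 62.2% to 88.5%) and 4 of 34 GNF4877 cells (11.8%, 3.3% to 27.5%), and its log2 ratio was -3.26 (-3.97 to -3.15 without 1 cell). *Ghr*, the growth hormone receptor, averaged 12.4 against 64.2 RPM (-2.29, without 1 cell -3.54 to -2.18), *Akt1* 9.06 against 44.4 RPM (-2.18, without 1 cell -2.94 to -1.76) and *Braf* 6.52 against 41 RPM (-2.48, without 1 cell -3.07 to -2.29). *Igf1r*, the most abundant gene of the list, had close means of 587 against 563 RPM (0.06), but -1.38 on the second scale.

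*Dyrk1a* and *Gsk3b*, which encode kinases that GNF4877 inhibits, were not past 2-fold by ratio of mean RPM. Of 10 kept DYRK, GSK3 and CLK genes 0 were higher and 0 lower (median 0.32), against 9.88% and 16.9% of all genes. With only 10 genes these counts lie near those shares, so no difference from all genes is read from them. On the second scale 4 of the 10 were lower and 0 higher (median -0.67). Of all genes 34.1% were lower and 1.85% higher on that scale, with a median of -0.64. In the shared range of gene numbers 2 of the 10 were higher and 0 lower (all genes there, 18.8% and 17.6%). *Gsk3b* averaged 264 against 156 RPM (0.75), with medians of 43.2 and 172 RPM that ran the other way, and *Dyrk1a* 18.7 against 9.67 RPM (0.88, without 1 cell 0.01 to 1.24). The *Dyrk1a* difference was -0.52 on the second scale, with 4 of 34 GNF4877 and 10 of 44 DMSO cells at 10 RPM. In the calcineurin and NFAT list 2 of 15 kept genes were higher (13.3%, against 9.88% of all genes) and 5 lower (33.3%, against 16.9%), with medians of -0.39 and, on the second scale, -0.93. In the shared range it was 3 higher and 2 lower of 14 (median -0.09), without an excess of lower genes. *Fkbp1a*, the FK506 binding protein, was higher in GNF4877 at 2.71 to 773 RPM in the DMSO cells (median 179) and 12.4 to 1333 RPM in the GNF4877 cells (median 420.0) (1.12). *Nfatc1*, read in 1 GNF4877 cell, averaged 2.25 against 13.9 RPM (-2.19, without 1 cell -3.89 to -1.89), and *Rcan1*, a calcineurin regulator and NFAT target, 27.9 against 12.4 RPM (1.12, without 1 cell 0.15 to 1.63), which was -0.47 on the second scale. Few Wnt targets were kept, and 1 of these 5 was higher and 1 lower (median -0.45, and -1.16 on the second scale). *Axin2*, a target of β-catenin, was under the limit for keeping a gene, with no read in GNF4877 and at most 6.79 RPM in DMSO. *Ctnnb1* averaged 100.5 against 137 RPM (-0.44), but was at -2.40 on the second scale, with medians of 1.22 and 65.7 RPM.

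In the G1 list 3 of 13 kept genes were higher and 3 lower (23.1% each, against 9.88% and 16.9% of all genes), with a median of 0.11. The second scale had 1 higher and 5 lower (all genes, 1.85% and 34.1%), with a median of -0.43, against -0.64. *Ccnd2*, cyclin D2, had 13.5 to 1262 RPM in the DMSO cells (median 424) and 0 to 613 RPM in the GNF4877 cells (median 73.4), a log2 ratio of -1.65. All DMSO cells but only 25 GNF4877 cells reached 10 RPM of it. *Ccnd1* averaged 122 against 168 RPM (-0.45), but was at -1.82 on the second scale, with medians of 14.7 and 165 RPM. *Cdk4* averaged 321 against 236 RPM (0.44). *Ccnd3* averaged 24.6 against 11.7 RPM (1.01), but was at -0.04 on the second scale with medians of 0 in both groups, and 10 GNF4877 and 15 DMSO cells reached 10 RPM. The pocket proteins *Rb1* and *Rbl2*, which hold E2F factors inactive, had log2 ratios of -2.29 (-3.75 to -2.01 without 1 cell) and -1.85, and *Cdk2* of 1.53. Of 4 kept inhibitors of cyclin-dependent kinases 2 were lower and 0 higher (medians -1.27 and, on the second scale, -0.99). *Cdkn1b*, which encodes p27, averaged 4.67 against 18.5 RPM (-1.78), and *Cdkn2b*, p15, 3.8 against 14.5 RPM (-1.69). *Cdkn1a*, *Cdkn2c* and *Cdk6* were under the limit, and *Cdkn1c* had no read in either group. *Myc* averaged 6.34 against 13.1 RPM (-0.94, without 1 cell -1.81 to -0.68).

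The non-cycling label was checked against cell cycle genes other than *Ccnb1* and *Mki67*. A rule of 5 or more G2 and M genes, or 10 or more with S phase genes included, at 10 RPM was met by 43 of 44 DMSO cells and 29 of 34 GNF4877 cells, so it did not separate cells. Cells held 1 to 9 G2 and M genes in DMSO (median 5) and 2 to 21 in GNF4877 (median 4.5), and 5 to 20 S phase genes in DMSO (median 14) and 5 to 44 in GNF4877 (median 10.5). In a count made after the values were seen, 6 of the 34 GNF4877 cells held more genes of at least 1 of the lists than any DMSO cell. For those cells at least the data go against the label, which stands here only for low *Ccnb1* and *Mki67*. Of 38 kept S phase genes 17 were 2-fold or more higher (44.7%, against 9.88% of all genes) and 2 lower (5.26%, against 16.9%), with a median of 0.79. On the second scale 4 were higher and 1 lower (all genes, 1.85% and 34.1%), with a median of -0.07 that lay near 0 but above the -0.64 of all genes. Single cells carried much of this, since 7 stayed 2-fold or more higher when any 1 cell was left out (4.31% of all genes did), against 19 of the 21 in the cholesterol list, and 1 met the whole naming rule. Without those 6 cells the median ratio was 0.40. *Mcm6*, a subunit of the replicative helicase, had 0 to 332 RPM in the DMSO cells (median 0) and 0 to 491 RPM in the GNF4877 cells (median 0.666) (2.31, without 1 cell 2.07 to 3.22). The 6 genes *Mcm2* to *Mcm7* summed to medians of 38.02 RPM in GNF4877 and 40.5 RPM in DMSO, while 9 GNF4877 cells exceeded the highest DMSO cell at 384 RPM and reached 1933 RPM. Of 19 kept G2 and M genes 8 were higher (42.1%) and 0 lower (median 0.69), and on the second scale 1 was higher and 3 were lower (median 0.20). The median was -0.42 with a filter of 20 RPM, and 1.85 in the shared range of gene numbers, where 11 of 18 were higher and 2 lower (all genes there, 18.8% and 17.6%). When any 1 cell was left out 5 of the 8 stayed past 2-fold. *Cks2*, a partner of cyclin-dependent kinases, averaged 10.5 against 0.784 RPM (2.68), and *Cdk1* 6.78 against 0.931 RPM under the limit. *Top2a* had no read in any DMSO cell and averaged 3.00 RPM in GNF4877, which against 3 reads over the DMSO group (0.0569 RPM) is a log2 ratio of at least 5.72. Without its highest cell the mean was 1.47 RPM and the limit 4.69. Reads of it were found beyond those 6 cells, in 25 GNF4877 cells, but they were few. The group held 110 *Top2a* reads, with a median of 1.17 RPM and a highest cell of 53.4 RPM. *Top2a* reached 10 RPM in 1 of 34 GNF4877 cells (2.94%, 0.0744% to 15.3%), and after thinning 5 of 34 still held a read. The GNF4877 cells left out as cycling averaged 498 RPM of it. Where the few reads in the other GNF4877 cells came from was not tested, so no wide expression is read from them.

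Of 34 kept genes of endoplasmic reticulum stress 0 were 2-fold or more higher (all genes, 9.88%) and 7 lower (20.6%, near the 16.9% of all genes). The median was -0.36, and -1.04 on the second scale, against -0.64 for all genes. In the shared range of gene numbers 3 of 34 were higher and 8 lower (median -0.30), against 18.8% and 17.6% of all genes there. *Trib3*, a pseudokinase induced by this stress, averaged 52.4 against 188 RPM (-1.82), the chaperone *Hyou1* 333 against 829 RPM (-1.31) and *Herpud1*, of protein degradation, 232 against 553 RPM (-1.25). *Hspa5*, the most abundant gene of the list, averaged 8279 against 7088 RPM (0.22). Ribosomal protein genes were close between the groups, with 0 of 79 higher and 1 lower (median 0.16), against 9.88% and 16.9% of all genes. The 1 gene was *Rps27*, at 178 to 1353 RPM in the DMSO cells (median 589) and 66.9 to 598 RPM in the GNF4877 cells (median 184) (-1.37), and 21 DMSO cells exceeded every GNF4877 cell. Of 82 kept oxidative phosphorylation genes 2 were higher and 2 lower (median -0.02), of 48 proteasome genes 2 and 2 (0.24), and of 36 genes of Myc and ribosome biogenesis 4 and 0 (0.43). The second scale put these lists at -0.29, -0.09 and -0.46. *Npm1*, a nucleolar chaperone, averaged 1078 against 440.3 RPM (1.29). *Actb* averaged 2717 against 2627 RPM (0.05) and *Gapdh* 705 against 473 RPM (0.57).

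Lists of other cell types were looked at in the same cells. Of all genes kept 9.88% were higher and 16.9% lower. All 10 kept mesenchymal genes of 16 were lower in GNF4877 (median -4.22, but -0.29 on the second scale), and 1 DMSO cell carried most of this. It held 17013 RPM summed over the list, led by *Col1a1* at 3056 RPM, and the next DMSO cell 1032 RPM. Without it the median was -0.29. No acinar and no pancreatic polypeptide list gene was kept. Of 17 immune genes 3 were kept and 2 were higher, led by *Cd74* at 68 against 3.72 RPM, and the summed list had medians of 12.2 and 9.72 RPM. The highest GNF4877 cell held 988 RPM of this list and the next 382 RPM. That cell also held 1121 RPM of the Schwann and neural list, and the next GNF4877 cell 11.2 RPM. Of the Schwann and neural list 1 gene was kept, which was higher. Of the endothelial list 1 gene was kept, which was lower (-1.88, and -0.64 on the second scale). In the duct list 2 of 6 kept genes were higher and 1 lower, with medians of 0.48 and, on the second scale, -0.11. The summed list had medians of 1084 RPM in GNF4877 and 623 RPM in DMSO, and 11 GNF4877 cells lay above the highest DMSO cell. Of its keratins *Krt8* had 0 to 867 RPM in the DMSO cells (median 103) and 2.37 to 3204 RPM in the GNF4877 cells (median 436) (2.07) and *Krt18* a log2 ratio of 1.36. *Krt19*, the defining duct keratin, averaged 8.87 against 0.341 RPM and *Sox9* 0.109 against 1.86 RPM. Of 4 kept α-cell genes 0 were higher and 1 lower, with medians of -0.63 and, on the second scale, -1.27. The summed list had medians of 715 RPM in GNF4877 and 1031 RPM in DMSO. Of the α-cell genes *Tm4sf4* averaged 215 against 498 RPM (-1.21). It reached 10 RPM in 26 of 34 GNF4877 and 42 of 44 DMSO cells, so it was present in most of the cells chosen as β-cells. *Gc* averaged 558 against 427 RPM (0.39, but -0.65 on the second scale). Of 4 kept δ-cell genes 0 were higher and 2 lower, with medians of -1.40 and, on the second scale, -1.92. The part of such cells in the other results was not tested.

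The 20 GNF4877 cells left out as cycling were set beside the same DMSO cells, so the values share their denominator. The cholesterol list had a median of 1.43 there, with 20 of 30 genes higher and 4 lower (all genes there, 10.7% and 23.5%), and *Fdps* and *Trh* had ratios of 2.62 and -5.81. The S phase list had a median of 2.13 and the G2 and M list of 3.23. *Kit* averaged 9.84 RPM in the cycling cells. In cells with 1000 RPM of *Gcg* and under 1000 RPM of *Ins1*, 18 from GNF4877 and 5 from DMSO, the cholesterol genes had a median of 0.96, with *Fdps* at 1.78, *Idi1* at -0.90 and *Trh* at -4.67. These differences between cell groups were not tested.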

How the data were processed

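The authors sequenced single 50 bp reads, and the submitters' processing notes name CASAVA 1.8.2, BWA 0.5.9 and SAMtools 0.1.19. The values they deposited are RPM for 27586 transcripts, scaled to mapped reads per cell with no division by length. Rat RefSeq transcripts are listed, although the methods of the study give a mouse transcriptome as the alignment target. A value of 0.01, where no read was counted, was set to 0, rows of a gene were added, and columns totalling under 300000 RPM were dropped (4 DMSO, 3 GNF4877). The smallest value of a cell above 0 was taken as 1 read, which gives its mapped reads, and 100% of the values worth at most 20 reads were whole to within 0.1 read. Reads of near-identical genes can be misplaced, and beyond the authors' look at each capture site under a microscope, only the limits on hormones act against doublets. No 2 cells held identical values.

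Genes with a mean of the group means under 5 RPM were left out, and ratios carry a pseudocount of 1 RPM, which understates the change of low genes. Named genes were the 15 highest and 15 lowest ratios among genes read in 50% or more of the cells of the higher group, past 2-fold when any 1 cell was left out and of the same sign as the difference of mean log2(RPM + 1), up to 4 such genes per list and direction, and a set chosen by role. Genes named for being a list's most abundant or defining gene were added after the values were seen. The members and lists were chosen with earlier results of these data known. *Mki67* was taken out of the G2 and M list, and kinases and assembly factors out of the ribosomal and oxidative phosphorylation lists, after the table was seen. Older symbols were matched through the RefSeq gene table of GRCr8 for 12 list genes. The authors' test across cells was not repeated, since cells are not replicates. The ratio step was tested on simulated data in which all cells of a group shared the same mean per gene. That check does not cover differences between cells of a group or in the number of genes read. Figures were drawn with matplotlib 3.10.9, and values computed in Python 3.11.15 with pandas 2.3.3, numpy 2.4.6 and scipy 1.17.1.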

Additional observations from a re-analysis of the deposited data

How the results depend on the processing

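No paired analysis was possible because the number in a cell's label only names it, and a treatment has no second sample. A log2 value or count moved when it changed by 1.5 times or more, and a value past 2-fold was reversed when it changed sign. For lists not described above, the main medians were -0.94 for matrix remodelling, 0.06 for p53, -0.11 for E2F and MuvB and -0.05 for Wnt pathway. They were -0.01 for BCL2 family, -0.40 for immediate early, -0.11 for disallowed genes and 0.14 for SR splicing. For mitochondrial regulators and histones they were -0.11 and -0.64. Of the 122 named genes 79 moved or reversed by difference of mean log2(RPM + 1), 82 by ratio of medians, 45 with a pseudocount of 10 RPM and 16 with 0.1 RPM, 87 and 37 in the narrow and shared ranges of gene numbers below, 106 without cells with a cycle programme, 36 without the cell that moved them most, 18 with *Mki67* of 0, 5 after thinning to 100000 reads, 4 with *Ins1* of 10000 RPM or more, 2 with the highest transcript of a gene, and 0 without the filter on column totals or when scaled to listed reads other than *Ins1* and *Ins2*. With a pseudocount of 0.1 RPM the median was -7.19 for mesenchymal. With 10 RPM there were 496 genes higher and 863 genes lower, and the median was -1.63 for mesenchymal. Without the filter on low genes there were 1503 genes higher and 3004 genes lower, and medians were -3.47 for mesenchymal, -0.11 for matrix remodelling and -0.0071 for histones. With a filter of 20 RPM there were 493 genes higher and 709 genes lower, and medians were -0.42 for G2 and M, -5.67 for mesenchymal, 0.28 for matrix remodelling and 0.63 for disallowed genes. As difference of mean log2(RPM + 1) there were 187 genes higher and 3451 genes lower, and medians were 0.84 for cholesterol, -0.075 for S phase, -1.34 for β-cell factors, -1.04 for ER stress, -0.29 for mesenchymal, -1.13 for β-cell markers, -1.01 for exocytosis, -0.82 for islet receptors, -0.67 for DYRK, GSK3 and CLK, -1.16 for Wnt targets, -0.71 for Wnt pathway, -1.005 for E2F and MuvB, -0.73 for p53, -0.13 for matrix remodelling and -0.46 for Myc and ribosome biogenesis. Reversed genes were *Rcan1* -0.47 and *Ccnd3* -0.041. With ratios of medians there were 220 genes higher and 3671 genes lower, and medians were 0.84 for cholesterol, 0.00 for S phase, 0.00 for G2 and M, -2.38 for β-cell factors, -1.96 for mitogen and insulin signalling, 0.00 for mesenchymal, -1.20 for β-cell markers, -1.75 for DYRK, GSK3 and CLK, -1.72 for G1, -1.82 for E2F and MuvB, -0.68 for p53, 0.00 for matrix remodelling, -0.22 for Myc and ribosome biogenesis and -1.44 for histones. Reversed genes were *LOC100912308* -0.072, *Zfp105* -0.22, *Sytl4* -0.63, *Syt5* -0.50 and *Cox6a2* -0.38. With *Ins1* of 10000 RPM or more the median was 1.42 for G2 and M. With *Mki67* of 0 medians were -0.70 for islet receptors and -0.53 for p53. Without the cell that moved each list most medians were -0.29 for mesenchymal, -0.76 for islet receptors and 1.79 for matrix remodelling. Leaving out cells with a cycle programme by the planned rule left 5 GNF4877 cells and 1 DMSO cell, so each ratio was against that single cell. In these cells there were 4026 genes higher, and medians were 1.75 for all genes, 5.97 for cholesterol, 2.35 for G2 and M, 3.12 for β-cell factors, 3.03 for mitogen and insulin signalling, 3.62 for mesenchymal, 1.45 for β-cell markers, 3.13 for glucose sensing, 1.07 for prohormone processing, 0.55 for exocytosis, 4.52 for islet receptors, 4.27 for DYRK, GSK3 and CLK, 4.58 for Wnt targets, 4.77 for Wnt pathway, 1.32 for G1, 1.87 for E2F and MuvB, 2.09 for p53, 4.63 for BCL2 family, 3.82 for immediate early, 5.49 for matrix remodelling, 1.90 for disallowed genes, 1.69 for SR splicing, 2.90 for Myc and ribosome biogenesis, 1.17 for mitochondrial regulators, 1.48 for duct, 1.16 for proteasome and -1.23 for histones. Reversed genes were *Kit* 0.19, *Rasa4* 1.58, *Zmym3* 1.54, *Cables2* 0.25, *Parm1* 1.74, *Trh* 7.25, *Ncald* 3.34, *Gtf3c2* 0.55, *Ins2* 1.10, *Nkx6-1* 1.45, *Myt1* 2.97, *Rfx3* 2.66, *Tshz1* 6.34, *Cacna1c* 0.30, *Cacnb3* 3.10, *Syt5* -5.88, *Rab3a* 6.65, *Cadps* 2.42, *Glp1r* 3.26, *Irs2* 2.43, *Braf* 1.28, *Ghr* 2.61, *Fkbp1a* -0.61, *Wif1* 4.58, *Rb1* 0.95, *Cdkn1b* 2.13, *E2f6* 6.42, *Zmat3* 0.99, *Bcl2l2* 1.31, *Xbp1* 0.37, *Dnajb1* 2.37, *Jund* 0.80, *Lmo4* 4.23, *Tra2a* 1.09, *Tm4sf4* 0.90, *Ptprz1* 0.25, *Frzb* 4.52 and *Cdk1* -0.33. The window of gene numbers between the 10th and 90th percentiles of both groups left 2 GNF4877 and 5 DMSO cells. In these cells there were 2048 genes higher and 3100 genes lower, and medians were 2.09 for G2 and M, 0.80 for mesenchymal, -1.15 for β-cell markers, -1.08 for exocytosis, -2.63 for islet receptors, -0.47 for DYRK, GSK3 and CLK, 0.39 for Wnt targets, 1.18 for disallowed genes, -0.47 for Myc and ribosome biogenesis, 1.88 for duct and 1.31 for histones. Reversed genes were *Mmp13* -2.06, *Exd2* -1.36, *Tshz1* 1.53, *Syt5* -3.74, *Wif1* 0.96, *Rb1* 0.27, *Gclc* 2.89, *Iapp* -0.29 and *Rcan1* -2.59. Further alternatives were chosen after seeing the data. In the 34 GNF4877 and 14 DMSO cells in the shared range of gene numbers there were 1846 genes higher, and medians were 2.16 for cholesterol, 1.85 for G2 and M, 0.17 for mesenchymal, 0.60 for islet receptors, 1.86 for matrix remodelling and 1.20 for duct. The reversed gene was *Rfx3* 1.69. Without the DMSO cell with most mesenchymal RPM medians were -0.29 for mesenchymal and 1.79 for matrix remodelling, against -4.22 and -0.94 with it. Without the 6 GNF4877 cells above every DMSO cell in cycle genes, 15 named genes moved and none reversed. The cause of these shifts was not tested, except that the alternatives with 1 to 5 cells rest on their small number. Shares of cells at 10 RPM lay outside their interval for 14 of 244 when any read at 100000 reads was counted and for 122 of 244 at 50 RPM.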
